A study of Mus musculus with 6 samples.

Results

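Transforming growth factor beta (TGF-beta) and platelet-derived growth factor (PDGF) form a pair of signalling pathways of tissue repair, and 10 genes of these pathways are described here in livers with and without the mitochondrial enzyme SHMT2 in hepatocytes. The genes were chosen by symbol: the TGF-beta ligands *Tgfb1*, *Tgfb2* and *Tgfb3*, the receptor chains *Tgfbr1* and *Tgfbr2*, the TGF-beta induced matrix gene *Tgfbi*, the pathway inhibitor *Smad7*, and the PDGF ligands *Pdgfa*, *Pdgfb* and *Pdgfc*. Each matched 1 of the 49671 gene IDs of the count table, and all 10 were among the 16089 genes with enough counts to be tested.

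RNA-seq was conducted on whole livers from 3 SHMT2 fl/fl mice and 3 SHMT2 HKO mice, which the deposited labels call WT and KO. SHMT2 fl/fl mice carry loxP sites around part of the *Shmt2* gene and no Cre. SHMT2 HKO mice carry the same floxed alleles together with Albumin-Cre, which targets the gene in hepatocytes. The paper proposes that SHMT2 in non-parenchymal liver cells was unaffected, and *Shmt2* was not measured by cell type here. The groups are called fl/fl and HKO here. All 6 mice were switched at 4 weeks of age to the AMLN diet, a fatty liver diet high in fructose and cholesterol, kept on it for 18 weeks and were 22 weeks old at harvest, and no liver of a chow-fed mouse was included. The comparison asks how the loss of hepatocyte SHMT2 alters the liver transcriptome in diet-induced fatty liver disease. Counts on genes ranged from 23090837 to 34089722 per liver. The labels list each liver as a separate sample, and the livers of 1 genotype differed from each other beyond counting error in every pair.

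TGF-beta is secreted in a latent form bound to matrix proteins and acts, once released by integrins or proteases, through a complex of the TGFBR2 and TGFBR1 chains that phosphorylates SMAD2 and SMAD3. PDGF ligands act through the tyrosine kinase receptors PDGFRA and PDGFRB. In the injured liver, TGF-beta is known as a driver of collagen production and PDGF as a growth signal for stellate cells, the pericytes that turn into matrix-producing myofibroblasts.

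The deletion could be seen in the targeted gene. *Shmt2* stood at 93.9 to 109 CPM in fl/fl livers and at 19.3 to 28.3 CPM in HKO livers (log2 fold change -2.04, adjusted p = 0.000639). CPM is the count scaled by the TMM-adjusted size of the library. Here and for every single gene, the adjusted p-value is Benjamini-Hochberg adjusted and comes from the quasi-likelihood test of edgeR. Hepatocyte markers summed to 51260 to 63082 CPM in fl/fl livers and to 67038 to 98970 CPM in HKO livers, so the liver label held in both genotypes.

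The 10 genes were lower in HKO livers as a group. At an adjusted p-value under 0.05, 8 of them fell, 0 rose and 2 (*Tgfbr2* and *Pdgfa*) did not pass the test. At an unadjusted p under 0.05, 9 were lower and 0 higher, and limma-voom and DESeq2 also called 8 lower and 0 higher. Over all 16089 genes, 29.0% were called by the same rule, 16.5% lower and 12.5% higher. The median log2 fold change was -1.05 over the 10 genes compared with 0.03 over all genes tested. The genes were chosen with earlier results of these data known, so these comparisons describe the list and do not test it. For 9 of the 10 genes every HKO liver lay below every fl/fl liver, a pattern that 25.0% of all genes tested showed. The largest differences were in *Tgfb2*, *Tgfb3* and *Pdgfb*, and the smallest in *Tgfbr2* and *Pdgfa*. These are bulk livers, in which fewer cells of a type and less RNA per cell cannot be told apart.

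**Figure D1:**
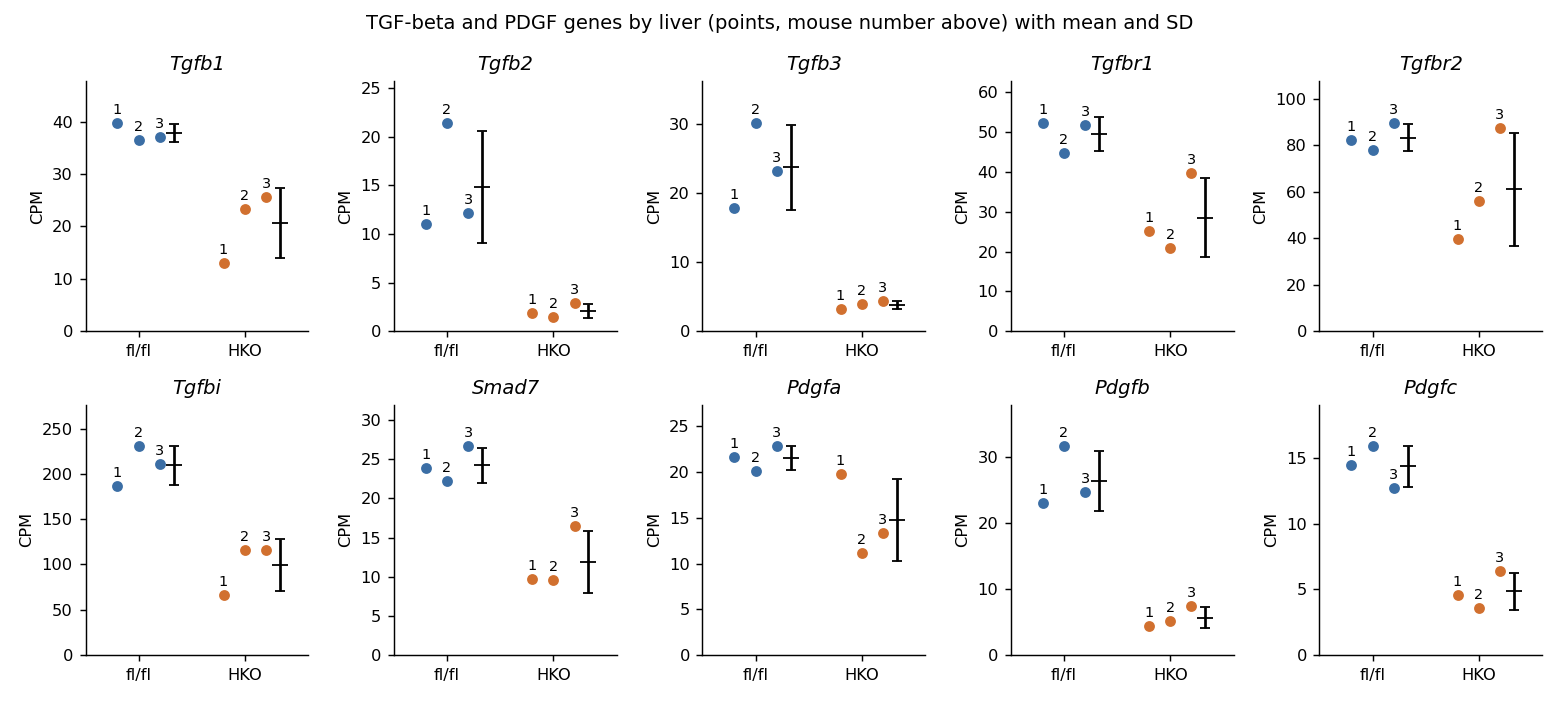
CPM of the 10 genes in each liver (points, with the mouse number above) of fl/fl and HKO mice, with the mean and SD of 3 livers beside them. The groups overlap for *Tgfbr2* alone, where HKO mouse 3 reached 87.4 CPM, and the 3 HKO livers lay at 1.47 to 2.91 CPM for *Tgfb2* and 3.23 to 4.33 CPM for *Tgfb3*.

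Among the TGF-beta ligands, *Tgfb1* (chromosome 7, 25687002 to 25705077, plus strand, GRCm38) encodes the form most studied in fibrosis. Its level was 39.8, 36.5 and 37.0 CPM in fl/fl mice 1, 2 and 3, and 13.1, 23.2 and 25.6 CPM in HKO mice 1, 2 and 3. The fl/fl livers lay close together and all above the HKO livers, of which mouse 1 was the lowest. *Tgfb1* fell to 54.7% of the fl/fl mean (log2 fold change -0.87, standard error 0.23, 95% interval -1.39 to -0.35, adjusted p = 0.0234). The call was lost without fl/fl mouse 1, 2 or 3 (adjusted p = 0.0794, 0.0639 and 0.0692) and without HKO mouse 2 (adjusted p = 0.0508).

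*Tgfb2* (chromosome 1, 186622792 to 186705989, minus strand) encodes a ligand that needs a co-receptor for strong binding and is known from bile duct epithelium. It stood at 11.0, 21.4 and 12.1 CPM in fl/fl mice 1, 2 and 3 and at 1.91, 1.47 and 2.91 CPM in HKO mice 1, 2 and 3. All HKO livers were far below the lowest fl/fl liver, and fl/fl mouse 2 was well above the other fl/fl mice. The mean fell from 14.9 ± 5.74 CPM (SD, n = 3) to 2.10 ± 0.740 CPM (SD, n = 3), with a log2 difference of -2.81 (standard error 0.35, adjusted p = 0.00158). These HKO values rest on 45, 29 and 74 counts, the lowest counts of any of the 10 genes.

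*Tgfb3* (chromosome 12, 86056745 to 86079041, minus strand) encodes the third ligand, which signals through the same receptors. Its level was 17.8, 30.1 and 23.1 CPM in fl/fl mice 1, 2 and 3, and 3.23, 3.95 and 4.33 CPM in HKO mice 1, 2 and 3. The HKO livers were close to each other and far from the fl/fl range. The level in HKO livers was 16.2% of the fl/fl mean (log2 fold change -2.62, standard error 0.23, adjusted p = 0.000798). *Tgfb2* and *Tgfb3* stayed past the threshold under every alternative tried.

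The relative amounts of the 3 TGF-beta ligands did not overlap between genotypes. Levels were divided by exon length (CPM per kb), since only then can genes be set against each other, and each ligand was expressed as a share of the 3. *Tgfb1* made up 52.4%, 36.5% and 45.1% of TGF-beta ligand transcripts in fl/fl mice 1, 2 and 3 and 66.9%, 76.4% and 74.0% in HKO mice 1, 2 and 3. Its share was higher in 3 of 3 HKO livers than in any fl/fl liver, 72.5% ± 4.96 (SD, n = 3) against 44.7% ± 7.99 (SD, n = 3) (exact permutation test, two-sided, p = 0.1, adjusted p = 0.133 over 8 such tests). With 3 livers against 3, 0.1 is the smallest p this test can give, so it cannot pass 0.05. *Tgfb3* held 40.6% ± 5.10 of the transcripts in fl/fl livers and 20.9% ± 3.25 in HKO livers, and *Tgfb2* 14.7% ± 3.41 and 6.68% ± 2.22 (exact permutation tests, two-sided, p = 0.1 each). A share within 1 liver does not depend on how the library is scaled. The sum of the 3 ligands, which does, lay between 15.0 and 19.9 CPM per kb in fl/fl livers and between 3.88 and 6.86 CPM per kb in HKO livers.

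**Figure D2:**
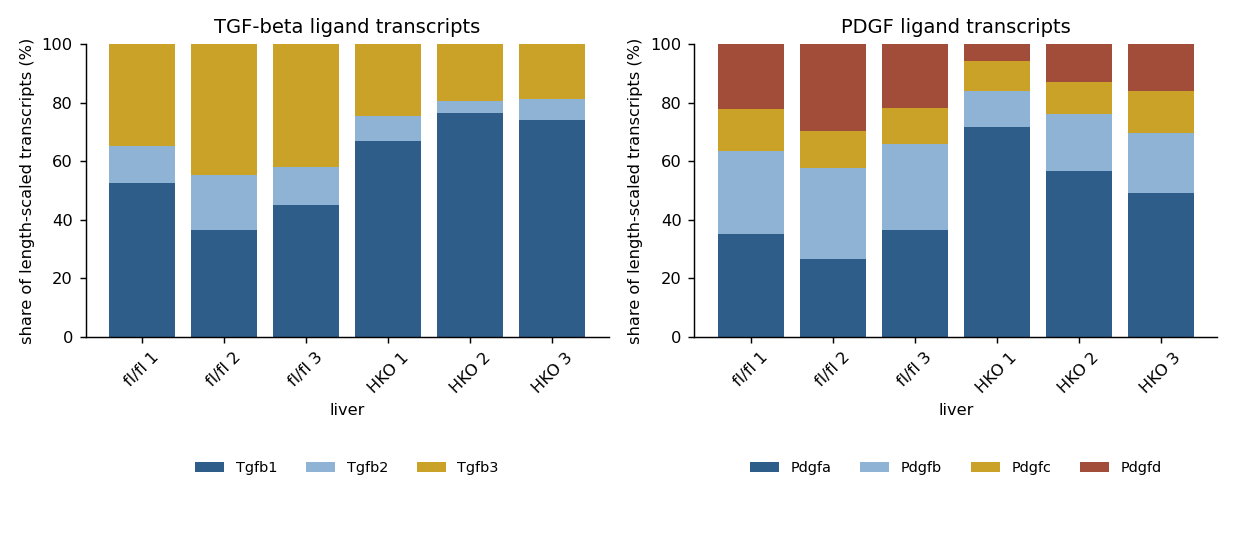
Share of each ligand (percent of CPM per kb of exon) among TGF-beta ligands (left) and PDGF ligands (right) in each liver, where each stacked bar is 1 liver. The *Tgfb1* segment spans 36.5% to 52.4% of the bar in fl/fl livers and 66.9% to 76.4% in HKO livers, and the *Pdgfa* segment widens from 26.5% to 36.3% to 49.2% to 71.8%.

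The stretches upstream of *Tgfb1*, *Tgfb2* and *Pdgfc* are shown as examples of ligand promoters, and a relation between their sequence and the size of the fall was not tested. RefSeq windows of GRCm38.p6 were examined for 7 of the 10 genes, and the 250 bases before the annotated start are printed 5′ to 3′ on the gene's strand. No window of *Tgfb3*, *Smad7* or *Pdgfb* was examined, so the motif results do not cover these genes. For *Smad7* this does not show that RefSeq lacks a window. Capitals mark matches on either strand to GGGCGG (the GC box, read CCGCCC on the other strand), CAGAC (a SMAD-binding element) or TATAAA (the TATA box), and no marked match overlaps another. The windows lie at chr7:25686752-25687001 (plus strand) for *Tgfb1*, chr1:186705990-186706239 (minus strand) for *Tgfb2* and chr3:81036166-81036415 (plus strand) for *Pdgfc*.
Tgfb1: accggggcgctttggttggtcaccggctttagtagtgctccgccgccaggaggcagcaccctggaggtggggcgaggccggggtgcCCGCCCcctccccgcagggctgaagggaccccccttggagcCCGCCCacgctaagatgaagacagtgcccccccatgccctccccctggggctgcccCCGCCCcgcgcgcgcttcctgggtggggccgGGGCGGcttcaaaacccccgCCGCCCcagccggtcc
Tgfb2: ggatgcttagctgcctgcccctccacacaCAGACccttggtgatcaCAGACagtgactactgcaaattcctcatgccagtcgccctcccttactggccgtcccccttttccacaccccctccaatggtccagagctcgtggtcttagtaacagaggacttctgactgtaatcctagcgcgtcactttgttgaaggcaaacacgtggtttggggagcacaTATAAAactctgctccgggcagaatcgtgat
Pdgfc: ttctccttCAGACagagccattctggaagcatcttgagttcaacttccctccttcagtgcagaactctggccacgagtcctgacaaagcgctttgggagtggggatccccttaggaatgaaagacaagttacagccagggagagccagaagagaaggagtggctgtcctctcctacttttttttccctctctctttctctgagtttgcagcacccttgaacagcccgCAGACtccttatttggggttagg
The *Tgfb1* window was 75.2% G or C, with 5 matches to GGGCGG and none to CAGAC or TATAAA. The *Tgfb2* window was 53.6% G or C, with 2 matches to CAGAC, 1 to TATAAA and 0 to GGGCGG, and the *Pdgfc* window was 50.8% G or C with 2 matches to CAGAC. The 2 windows of *Pdgfa* were 66.4% and 72.4% G or C. The median over all 32851 RefSeq windows of this length was 52.4% G or C. GGGCGG was found in 32.7% of all windows, CAGAC in 42.2% and TATAAA in 12.4%. The AP-1 site TGACTCA and the CRE site TGACGTCA, found in 4.46% and 1.55% of all windows, were in none of the windows of the 7 genes. A match is a run of letters and not a measured binding site.

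The receptor chains had smaller log2 fold changes than the ligands *Tgfb2* and *Tgfb3*, with 95% intervals that did not overlap theirs (-3.60 to -2.02 for *Tgfb2* and -3.15 to -2.10 for *Tgfb3*). *Tgfbr1* (chromosome 4, 47353222 to 47414931, plus strand), the signalling kinase of the complex, stood at 52.4, 44.7 and 51.8 CPM in fl/fl mice 1, 2 and 3 and at 25.1, 20.9 and 39.6 CPM in HKO mice 1, 2 and 3. Every HKO liver was below every fl/fl liver, with HKO mouse 3 nearest to them. *Tgfbr1* fell to 57.6% of the fl/fl mean (log2 fold change -0.80, 95% interval -1.31 to -0.28, adjusted p = 0.0301). Its call was lost in 5 of the 6 fits that left out 1 liver, namely without fl/fl mouse 1, 2 or 3 (adjusted p = 0.0967, 0.0625 and 0.0967) and without HKO mouse 1 or 2 (adjusted p = 0.0592 and 0.0859).

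*Tgfbr2* (chromosome 9, 116084293 to 116175360, minus strand), the ligand-binding chain, was at 82.3, 78.0 and 89.7 CPM in fl/fl mice 1, 2 and 3 and at 39.7, 56.1 and 87.4 CPM in HKO mice 1, 2 and 3. HKO mouse 3 lay within the fl/fl range and the other HKO mice below it. The log2 fold change was -0.45 (95% interval -1.04 to 0.14, adjusted p = 0.225), so a fall of about the size seen in *Tgfbr1* lies inside the interval. Without HKO mouse 3 the log2 fold change was -0.82 with an adjusted p of 0.00913. The ratio of *Tgfbr2* to *Tgfbr1* per kb was 1.34 ± 0.0775 (SD, n = 3) in fl/fl livers and 1.72 ± 0.443 (SD, n = 3) in HKO livers, a log2 difference of 0.33 that was within the spread of the HKO livers (exact permutation test, two-sided, p = 0.3, adjusted p = 0.343 over 8 tests).

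Both genes known to be induced by TGF-beta fell. *Tgfbi* (chromosome 13, 56609523 to 56639562, plus strand), which encodes a secreted matrix protein that binds integrins and collagens, was at 187, 230 and 211 CPM in fl/fl mice 1, 2 and 3 and at 65.8, 116 and 116 CPM in HKO mice 1, 2 and 3. The HKO livers were all below the fl/fl livers, and HKO mouse 1 was the lowest. *Tgfbi* fell to 47.4% of the fl/fl mean (log2 fold change -1.08, standard error 0.22, adjusted p = 0.00983), a call that held under every alternative tried. *Smad7* (chromosome 18, 75367529 to 75395935, plus strand), the inhibitory SMAD that targets the receptor complex for degradation, was at 23.9, 22.2 and 26.6 CPM in fl/fl mice 1, 2 and 3 and at 9.68, 9.52 and 16.5 CPM in HKO mice 1, 2 and 3. Here HKO mice 1 and 2 were nearly equal and mouse 3 was higher, still below the fl/fl range. *Smad7* fell to 49.1% of the fl/fl mean (log2 fold change -1.02, standard error 0.22, adjusted p = 0.0117), and the call was lost without fl/fl mouse 3 (adjusted p = 0.0526).

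Of *Pdgfa*, *Pdgfb* and *Pdgfc*, the PDGF ligand *Pdgfb* (chromosome 15, 79995874 to 80014977, minus strand), a mitogen for stellate cells made by endothelial cells, platelets and macrophages, was the most changed. It stood at 23.1, 31.6 and 24.7 CPM in fl/fl mice 1, 2 and 3 and at 4.46, 5.11 and 7.44 CPM in HKO mice 1, 2 and 3. The groups were far apart, with fl/fl mouse 2 and HKO mouse 3 the highest of each. The mean fell from 26.5 ± 4.55 CPM (SD, n = 3) to 5.67 ± 1.57 CPM (SD, n = 3), with a log2 difference of -2.22 (standard error 0.22, adjusted p = 0.000943).

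*Pdgfc* (chromosome 3, 81036416 to 81214040, plus strand) encodes a ligand that must be cut by a protease such as tissue plasminogen activator before it binds PDGFRA. Its level was 14.5, 15.9 and 12.8 CPM in fl/fl mice 1, 2 and 3 and 4.58, 3.60 and 6.38 CPM in HKO mice 1, 2 and 3. Each HKO liver was well below each fl/fl liver. *Pdgfc* fell to 33.7% of the fl/fl mean (log2 fold change -1.56, standard error 0.22, adjusted p = 0.00261). Like *Pdgfb*, it stayed past the threshold under every alternative tried.

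*Pdgfa* (chromosome 5, 138976014 to 138997370, minus strand), whose product acts through PDGFRA, had the smallest difference of these 3 ligands. It was at 21.7, 20.1 and 22.8 CPM in fl/fl mice 1, 2 and 3 and at 19.8, 11.2 and 13.4 CPM in HKO mice 1, 2 and 3. The groups did not overlap, but HKO mouse 1 was just under the lowest fl/fl mouse. *Pdgfa* had a log2 fold change of -0.54 (95% interval -1.01 to -0.07) and did not pass after adjustment (adjusted p = 0.0818). It passed without HKO mouse 1 (log2 fold change -0.80, adjusted p = 0.00541), without TMM (-0.97, adjusted p = 0.0116) and with genes kept from 1 count in any liver (-0.56, adjusted p = 0.0498). Without TMM the median of all genes shifted as well, by -0.42 on the log2 scale. Exons of *Pdgfa* overlap the antisense gene *6330403L08Rik* over 813 bp, 26.1% of its exon length, and whether the counting used strand is not given in the sources used here. Counts of *6330403L08Rik* ranged from 137 to 247 in fl/fl livers and from 82 to 128 in HKO livers. These counts do not show whether reads of the pair were separated, and they may not have been. The overlaps of *Tgfb2*, *Tgfb3* and *Pdgfc* with other counted genes involved partners with at most 3 counts over all livers.

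Among the PDGF ligands, including *Pdgfd*, *Pdgfa* was the leading transcript per kb in all 3 HKO livers and in fl/fl mice 1 and 3. The limit from the antisense overlap of *Pdgfa* applies to these levels and shares as well. The share of *Pdgfa* was 35.2%, 26.5% and 36.3% in fl/fl mice 1, 2 and 3 and 71.8%, 56.6% and 49.2% in HKO mice 1, 2 and 3, higher in 3 of 3 HKO livers (means 32.7% ± 5.41 and 59.2% ± 11.5, SD, n = 3; exact permutation test, two-sided, p = 0.1, adjusted p = 0.133). The share of *Pdgfb* was lower, 29.6% ± 1.54 in fl/fl and 17.3% ± 4.56 in HKO livers, as was that of *Pdgfd*, 24.5% ± 4.38 and 11.6% ± 5.11 (exact permutation tests, two-sided, p = 0.1 each). The share of *Pdgfc* was 13.2% ± 1.06 and 11.9% ± 2.20, a difference within the spread of the HKO livers (exact permutation test, two-sided, p = 0.4).

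**Figure D3:**
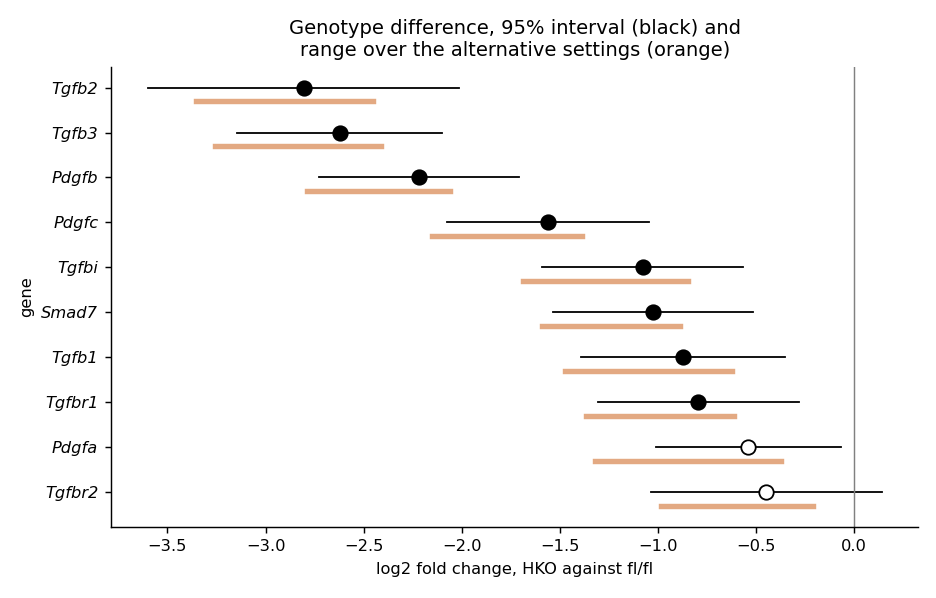
Log2 fold change of each gene, HKO against fl/fl (points, filled where the adjusted p is under 0.05), with the 95% interval (black) and the range over the alternative settings (orange). All 10 points and all orange ranges lie below 0, and the intervals of *Tgfb2*, *Tgfb3* and *Pdgfb* end at -1.71 or lower while that of *Tgfbr2* reaches 0.14.

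Ordered by CPM per kb, *Tgfbi* was the highest of the 10 genes in both genotypes, at 55.6 ± 5.76 in fl/fl and 26.3 ± 7.69 in HKO livers (SD, n = 3). In fl/fl livers *Tgfbr2* followed at 10.2 ± 0.724, separate from *Tgfbi* above and *Tgfbr1* below it. Next came *Tgfbr1* (7.59), *Tgfb1* (7.49), *Tgfb3* (7.00), *Pdgfa* (6.91), *Pdgfb* (6.36) and *Smad7* (5.36), each overlapping the next in this order. *Pdgfc* (2.83) and *Tgfb2* (2.57) overlapped each other and lay below *Smad7*. In HKO livers *Tgfbr2* (7.46), *Pdgfa* (4.74), *Tgfbr1* (4.37), *Tgfb1* (4.10) and *Smad7* (2.63) each overlapped the next. They lay above *Pdgfb* (1.36), *Tgfb3* (1.13) and *Pdgfc* (0.953), which also overlapped in turn, and *Tgfb2* was lowest at 0.362 and separate from *Pdgfc*. *Pdgfa* thus stood above *Tgfb3* and *Pdgfb* in HKO livers without overlap, while these 3 overlapped in fl/fl livers.

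The HKO livers differed among themselves over most of these genes. HKO mouse 3 was the highest HKO liver for 9 of the 10 genes, with *Pdgfa* the exception. As a percentage of the fl/fl mean, the median over the 10 genes was 33.2% in HKO mouse 1, 40.7% in mouse 2 and 58.8% in mouse 3. In a principal component analysis of all genes tested, the first component (64.8% of the variance) separated the genotypes. On it HKO mouse 3, at 35.0, lay nearer the fl/fl livers (-65.5 to -51.0) than HKO mice 1 and 2 (66.5 and 68.8). The second component (19.4%) set HKO mouse 1 apart from mice 2 and 3.

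The other PDGF genes followed mostly the same direction. Of 9 genes of the PDGF family and its partners, 8 fell and 1 rose, with a median log2 fold change of -2.10. This is 88.9% lower and 11.1% higher, against 16.5% and 12.5% over all genes. The receptor *Pdgfra* was at 48.4, 55.7 and 62.7 CPM in fl/fl mice and 7.94, 13.8 and 17.2 CPM in HKO mice (log2 fold change -2.10, adjusted p = 0.00173), and *Pdgfrb* was at 63.2 to 80.6 CPM and 22.2 to 33.9 CPM (-1.46, adjusted p = 0.00165). Both receptors were well separated between genotypes. The ligand *Pdgfd* (-2.54, adjusted p = 0.00268), the receptor-like gene *Pdgfrl* (-2.48, adjusted p = 0.00214) and *Plat* (-2.38, adjusted p = 0.00101), which encodes the plasminogen activator that cuts PDGF-C, fell as well. The co-receptor *Nrp1* rose (1.04, adjusted p = 0.0258), and lost the call without TMM (0.60, adjusted p = 0.115), under scaling to the ERCC spike-in RNAs (0.21, adjusted p = 0.750), with the 1-count filter (adjusted p = 0.0856) and without any 1 of the fl/fl mice (adjusted p = 0.0714 to 0.0959).

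Genes that store latent TGF-beta or release it fell in 7 of 13 cases, with 0 higher (1, *Furin*, at an unadjusted p under 0.05, by limma-voom and by DESeq2), and the list's median was -1.03 on the log2 scale. Lower genes made up 53.8% of the list, against 16.5% over all genes. The number lower was 10 with DESeq2, 11 without TMM and 12 without HKO mouse 3. The integrin chain *Itgb6*, which with the alpha v chain activates latent TGF-beta on epithelium, was at 3.50, 7.22 and 3.81 CPM in fl/fl mice and 0.212, 0.405 and 0.827 CPM in HKO mice (log2 fold change -3.30, adjusted p = 0.00324). *Itgb8* of the same integrin group fell too (-1.95, adjusted p = 0.0138), a call lost without fl/fl mouse 1 (adjusted p = 0.0600). A level of 3 counts equals 0.127, 0.152 and 0.118 CPM in HKO mice 1, 2 and 3, so the *Itgb6* values there rest on few counts. *Itgb6* and *Itgb8* were both left out by the filter of 10 counts in every liver. Of the latent TGF-beta binding proteins, *Ltbp2* (-2.96, adjusted p = 0.00111; 9.34% of its exon length shared with an antisense gene), *Ltbp3* (-2.10, adjusted p = 0.000871) and *Ltbp4* (-0.95, adjusted p = 0.0230) fell, and *Ltbp1* did not pass (-0.93, adjusted p = 0.0575). *Ltbp1* passed with limma-voom (adjusted p = 0.0294), DESeq2 (0.0215), no TMM (0.0295), upper-quartile normalization (0.0425), ERCC scaling (0.0490) and the filter of 10 counts (0.0480), and without HKO mouse 1 or 3 (adjusted p = 0.0493 and 0.00540). *Ltbp4* lost its call without fl/fl mouse 2 or 3 or HKO mouse 2 (adjusted p = 0.0770, 0.0792 and 0.0605). The fibrillin gene *Fbn1*, whose fibres anchor latent complexes, fell as well (-2.16, adjusted p = 0.00128), and it shares 20.1% of its exon length with *Gm9913* on the other strand.

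Of 4 tested co-receptors and decoys, *Bambi*, a decoy receptor (-1.93, adjusted p = 0.000852), and *Acvrl1*, the endothelial receptor ALK1 (-1.31, adjusted p = 0.00155), fell. Betaglycan, the co-receptor of TGF-beta 2 encoded by *Tgfbr3* (-0.43, adjusted p = 0.197), and endoglin, encoded by *Eng* (-0.32, adjusted p = 0.154), did not pass. Both passed without TMM (-0.83 and -0.74, adjusted p = 0.0475 and 0.0134), where the median of all genes shifted by -0.42 and 30.6% of all genes were lower. *Cd109* had too few counts to be tested. Of the 4 tested genes 50% were lower, against 16.5% over all genes.

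Among 11 SMADs and their regulators, 4 fell and 0 rose, with a median log2 fold change of -0.60. These 4 calls are 36.4% of the list, against 29.0% called and 16.5% lower over all genes. At an unadjusted p under 0.05 there were 6 lower and 2 higher genes (*Smurf2* and *Zfyve9*), and limma-voom and DESeq2 called 0 higher. Without fl/fl mouse 2 or 3 the number lower was 2, and without HKO mouse 3 it was 6. *Smad3* fell from 27.8 ± 3.05 CPM to 13.9 ± 2.03 CPM (SD, n = 3; log2 fold change -1.0, adjusted p = 0.00297). *Smad2* (0.20, adjusted p = 0.312) and the shared partner *Smad4* (-0.26, adjusted p = 0.331) did not pass, though *Smad4* did without HKO mouse 3 (-0.53, adjusted p = 0.00980). The feedback inhibitor *Pmepa1* fell (-1.96, adjusted p = 0.000912). The SMAD repressors *Tgif1* (-0.65, adjusted p = 0.0403) and *Ski* (-0.60, adjusted p = 0.0258) fell but lost the call under ERCC scaling (adjusted p = 0.0747 and 0.0625) and in several fits without 1 liver, up to adjusted p = 0.148 for *Tgif1* without fl/fl mouse 3 and 0.0967 for *Ski* without the same mouse.

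Of 18 genes commonly used as TGF-beta induced genes, 11 fell and 0 rose, with a median log2 fold change of -1.28, and 0 were higher at an unadjusted p under 0.05 or by limma-voom or DESeq2. Lower genes made up 61.1% of the list, against 16.5% over all genes. The number lower was 7 without fl/fl mouse 2 or 3 and 14 without HKO mouse 3. The cell cycle inhibitor *Cdkn2b* fell (-1.90, adjusted p = 0.0138) from levels of 1.39 to 1.5 CPM, a call lost without fl/fl mouse 2 or 3 (adjusted p = 0.0521 and 0.0561). *Ccn2*, connective tissue growth factor, did not pass (-1.31, adjusted p = 0.121). It passed without TMM (adjusted p = 0.0498) and under ERCC scaling (-1.71, adjusted p = 0.00973), settings in which the median of all genes shifted by -0.42 and -0.72. The difference of *Ccn2* was -0.73 without fl/fl mouse 2. *Ccn2* spread widely, from 21.8 to 76.9 CPM in fl/fl livers and from 8.40 to 29.2 CPM in HKO livers, and it shares 23.2% of its exon length with *Gm15270* on the other strand. This list shares *Pmepa1*, *Skil* and *Ltbp2* with the lists above, so the counts are not separate.

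The BMP and activin branch of the family, which uses other receptors and SMADs, had 4 higher and 3 lower genes among 26 tested, and the median over the list was -0.05 on the log2 scale. At 26.9% called, 15.4% higher and 11.5% lower, the list was close to the shares over all genes (29.0%, 12.5% and 16.5%). Under ERCC scaling 1 gene was higher and 3 lower, and without TMM 2 were higher and 8 lower. The higher genes were the ligand *Bmp10* (3.55, adjusted p = 0.00884), at 0.0376 to 0.563 CPM in fl/fl and 1.87 to 4.71 CPM in HKO livers with a single count in fl/fl mouse 2, *Bmp7* (1.25, adjusted p = 0.00645), and the activin subunits *Inhbe* (0.93, adjusted p = 0.00564) and *Inhbc* (0.86, adjusted p = 0.00516), which hepatocytes secrete. *Bmp7*, *Inhbe* and *Inhbc* lost their calls under ERCC scaling (adjusted p = 0.547, 0.728 and 0.909), and both activin subunits also without TMM (adjusted p = 0.0670 and 0.0510). The lower genes were *Id1*, a BMP target (-1.17, adjusted p = 0.0170), *Bmp6*, an endothelial ligand that controls hepcidin (-0.97, adjusted p = 0.0251), and *Smad5* (-0.37, adjusted p = 0.0460). Calls were lost without fl/fl mouse 2 or 3 for *Id1* (adjusted p = 0.0636 and 0.0617), without fl/fl mouse 1 or 2 for *Bmp6* (adjusted p = 0.0575 and 0.0859), and under 8 alternatives for *Smad5* (adjusted p = 0.0772 to 0.164).

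Markers of several cell types that make or receive these signals also moved with genotype. Over all genes 29.0% were called. Of the markers, 100% were called for cholangiocytes, 83.3% for T cells and 62.5% each for recruited macrophages, myofibroblasts and Kupffer cells. The share was 44.4% for stellate cells, 37.5% each for endothelial cells and hepatocytes, 25% for platelets and 0% for B cells. All 8 cholangiocyte markers fell (median log2 fold change -3.04), and their summed level was 162 to 307 CPM in fl/fl livers and 25.6 to 36.3 CPM in HKO livers, with none of them at 0. Of 6 T cell markers 5 fell, all but *Cd4* (median -2.41, sums 20.6 to 25.6 CPM and at most 7.6 CPM), of 8 recruited macrophage markers *Trem2*, *Cd9*, *Itgax*, *Cx3cr1* and *Ly6c2* fell (-1.58, sums 277 to 326 CPM and 55.7 to 203 CPM), and of 8 myofibroblast markers the collagen genes *Col1a1*, *Col1a2* and *Col3a1* and *Timp1* and *Lox* fell (-1.65, sums 1093 to 1153 CPM and 189 to 574 CPM), of which the collagens and *Timp1* are also in the list of TGF-beta induced genes. The 9 stellate cell markers were mixed, with *Reln* and *Ecm1* higher, *Des* and *Pdgfrb* lower and a median of -0.11. Of 8 Kupffer cell and macrophage markers *Clec4f*, *Vsig4* and *Timd4*, of resident cells, rose and *Cd68* and *Csf1r* fell (median 1.07), of 8 sinusoidal endothelial markers *Stab2*, *Clec4g* and *Oit3* rose (0.48), of 8 hepatocyte markers *Ttr*, *Cyp2e1* and *F2* rose (0.62), of 4 platelet markers tested *Pf4* fell (0.39), and of 4 B cell markers 0 passed (-0.85; *Cd79b* lower at an unadjusted p under 0.05, and 0 called by limma-voom or DESeq2). Of the markers, *Csf1r* shares 15.1% of its exon length with *Hmgxb3* and *Cd9* shares 10.7% with *Gm26728*, both on the other strand. *Tagln*, which was not called, shares 62.4% with *Gm48529* on the other strand. Several of the numbers of markers called moved with the processing. Recruited macrophage markers lower numbered 2 without fl/fl mouse 1 or 3, 3 without HKO mouse 2 or with the 1-count filter, and 8 without HKO mouse 3. Myofibroblast markers lower numbered 3 without fl/fl mouse 1 or with the 1-count filter, and T cell markers lower numbered 2 with the filter of 10 counts, which leaves fewer genes tested. Hepatocyte markers higher numbered 1 with the replicate block, under ERCC scaling and without fl/fl mouse 1, 2 or 3 or HKO mouse 2, 4 with the 1-count filter, 5 without HKO mouse 3, and 6 with DESeq2. ERCC scaling left 0 endothelial and 0 stellate markers higher, and DESeq2 and the fit without HKO mouse 1 called 5 endothelial markers higher. Without fl/fl mouse 3 there were 1 higher and 1 lower stellate marker and 0 called platelet markers. Without TMM, 1 endothelial marker was higher and 2 lower, 0 stellate markers were higher and 4 lower, and 1 hepatocyte marker was higher. In addition, 1 hepatocyte marker was lower without TMM, under upper-quartile or ERCC scaling, with DESeq2 and with the 1-count filter. B cell markers lower numbered 2 without TMM, under ERCC scaling and without HKO mouse 2. The part of these cell types in the lower levels of the TGF-beta and PDGF genes was not tested.

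**Figure D4:**
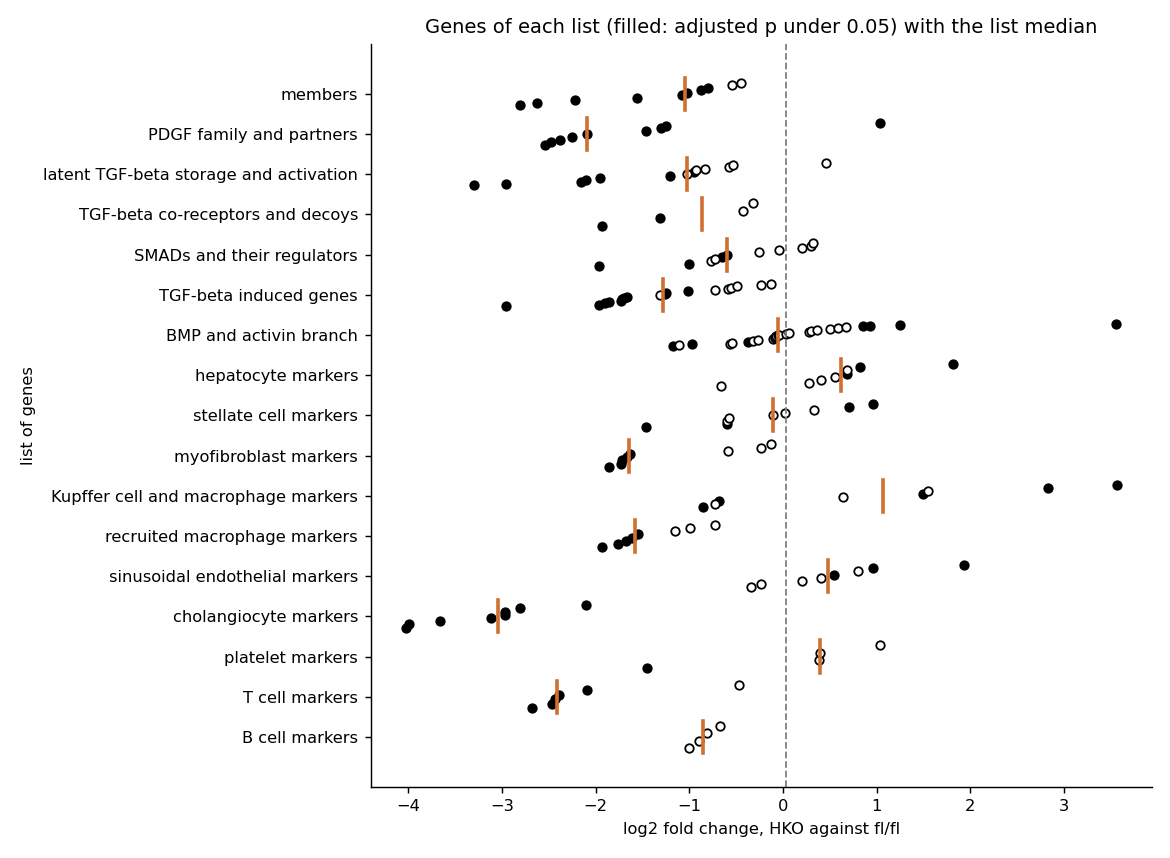
Log2 fold change, HKO against fl/fl, of every tested gene of each list (points, filled where the adjusted p is under 0.05), with the list median (orange bar) and the median of all 16089 genes tested (dashed line); the row named members holds the 10 TGF-beta and PDGF genes. The medians of the members (-1.05), the PDGF partners (-2.10) and the cholangiocyte markers (-3.04) lie to the left of the dashed line, and that of the BMP and activin branch (-0.05) lies close to it.

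Likeness of pattern was measured as the root-mean-square difference of log2(CPM + 0.5), centred per gene, over the 6 livers, among 150 genes of the lists. It is a description, since all genes share the same libraries. The added 0.5 narrows the differences of genes at low CPM, such as *Itgb6* and *Cftr* in HKO livers. The genotype difference is part of the measure, so genes with similar log2 fold changes tend to lie near each other. Nearness does not show expression in the same cells. *Pdgfb* was most like *Ltbp3* (0.059) and *Fbn1* (0.11), *Tgfb1* most like *Loxl2* (0.10) and *Ltbp4* (0.15), and *Tgfbi* most like *Ltbp4* (0.11). *Tgfbr1* and *Smad7* were each other's nearest gene (0.13). *Tgfb2* was nearest to *Cftr* (0.17), *Itgb6* (0.20) and *Krt7* (0.20), and *Tgfb3* to *Krt7* (0.21), *Itgb6* (0.21) and *Pdgfb* (0.22). *Tgfbr2* was nearest to *Dcn* (0.091), a matrix gene of stellate cells and fibroblasts, and *Pdgfc* to *Lox* (0.18). *Pdgfa* had the most distant nearest gene, *Ms4a1* (0.22).

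The direction of the 10 genes did not depend on the scaling. The median of all genes shifted by -0.42 on the log2 scale without TMM and by -0.72 under scaling to the ERCC spike-in RNAs, synthetic transcripts added to each sample. Relative to that shift, the 10 genes still lay lower, from -2.63 for *Tgfb2* to -0.26 for *Tgfbr2* under ERCC scaling and from -2.78 for *Tgfb2* to -0.41 for *Tgfbr2* without TMM. Under ERCC scaling 8 of the 10 fell (17.1% of all genes), and *Tgfbr2* (adjusted p = 0.155) and *Pdgfa* (adjusted p = 0.0704) did not pass. Without TMM 9 of the 10 fell (30.6% of all genes), with the replicate number as a block 8 (13.6%), and without fl/fl mouse 3 the lowest number, 5 (9.92%). Over all genes ERCC scaling called 107 genes higher and 2759 lower, against 2012 and 2651 with TMM. Spike-ins made up 1.42% to 1.84% of counts in fl/fl livers and 2.75%, 2.31% and 1.35% in HKO mice 1, 2 and 3. HKO mouse 3 thus lay below the fl/fl range, on the other side from HKO mice 1 and 2.

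**Figure D5:**
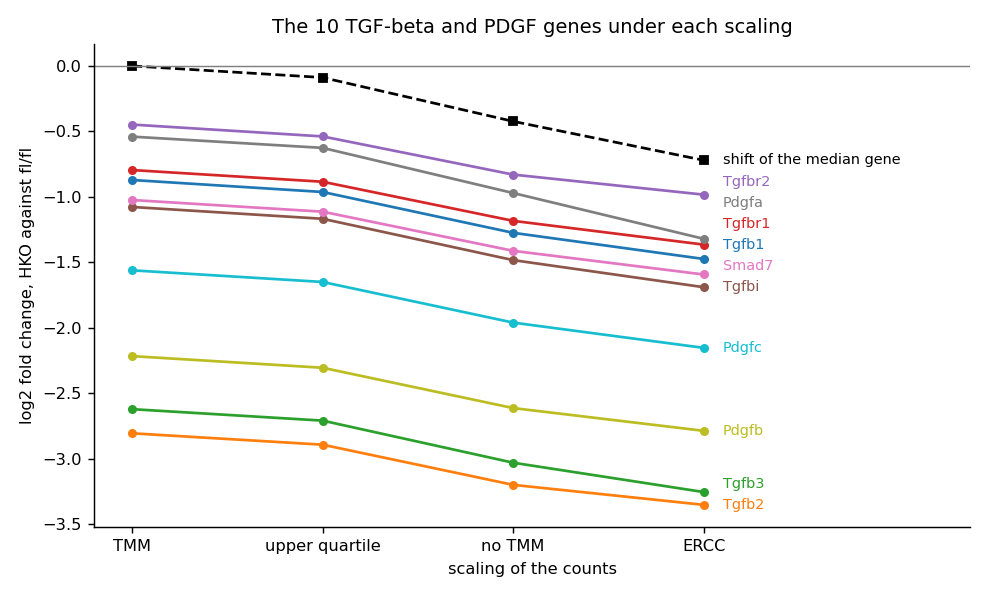
Log2 fold change, HKO against fl/fl, of the 10 genes (coloured points) and shift of the median gene (black squares) under each scaling of the counts, with lines joining the values of 1 gene. Every gene stays below the black line, which reaches -0.72 under ERCC scaling.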

How the data were processed

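Total RNA from 6 livers was sequenced. The authors made NEBNext Ultra libraries, trimmed read pairs with Trimmomatic 0.36, mapped them by STAR 2.5.2b to GRCm38 plus ERCC and counted unique hits per gene, with Subread 1.5.2 featureCounts named in the submitters' processing notes. The deposited table holds raw counts. Strand use and handling of overlapping genes are not given in the sources used here.

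The table held 49671 gene IDs and 92 ERCC spike-ins, kept only for the ERCC scaling. Columns were mapped to samples by their titles. WT was taken to mean fl/fl and KO to mean HKO. Symbols, coordinates and exon lengths came from GENCODE M21; 259 IDs (0.0116% of gene counts) had no entry.

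Counts were filtered (filterByExpr), scaled by TMM and tested with edgeR 4.0.16 (quasi-likelihood F test, robust, two-sided), with Benjamini-Hochberg adjustment over 16089 genes; single-gene adjusted p-values are from this fit. Standard errors and 95% intervals came from the same fit. Shares were compared by exact permutation over 20 assignments of livers. The code was tested on simulated data. Total gene counts of 23090837 to 34089722 per liver set the precision, and intervals reflect 3 livers per group. Alternatives were limma-voom (limma 3.58.1), DESeq2 1.42.0, no TMM, upper-quartile and ERCC scaling, filters of 1 count in any liver and 10 in every liver, dispersions not estimated robustly, a block for the replicate number, and each liver left out in turn. The genes and lists were chosen with earlier results of these data known. Named genes were the 10 genes, *Shmt2*, up to 3 called genes per list and direction with the largest change, a set of receptors, latency proteins and SMADs, and the 3 list genes most like each of the 10; not all of the last are printed. Cell type markers, *Furin*, *Smurf2* and *Zfyve9* were named after their values were seen. Of the results of the naming rule, 1 is not reported here.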

Additional observations from a re-analysis of the deposited data

How the results depend on the processing

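No result changed direction for the 10 genes. Of 150 values of these genes under the 15 alternatives, 136 stayed on the same side of the threshold, 10 lost a call (*Tgfb1*, *Tgfbr1* and *Smad7*) and 4 gained one (*Tgfbr2* and *Pdgfa*). The number of the 10 genes called, 8, was 5 to 9 with 1 liver left out, with 5 without fl/fl mouse 3, and 8 or 9 under the other alternatives. Of 78 tested genes of the pathway lists 38 (48.7%, against 29.0% over all genes) were called, and 27 to 48 with 1 liver left out. Over all genes 4663 were called, 2426 to 5597 with 1 liver left out (2699, 2547 and 2426 without fl/fl mice 1, 2 and 3, and 3023 without HKO mouse 2), and 2866 under ERCC scaling. Lower calls made up 56.9% of all calls with TMM, 67.5% with upper-quartile normalization, 90.1% without TMM and 96.3% under ERCC scaling; the cause was not tested. With 1 liver left out, the difference in share was 23.7 to 31.7 percentage points for *Tgfb1*, 20.2 to 31.5 for *Pdgfa*, -13.8 to -9.64 for *Pdgfb* and -2.59 to -0.49 for *Pdgfc*, and the log2 difference in the receptor ratio was 0.15 to 0.53. The replicate numbers did not pair the livers, since deviations of same-numbered livers correlated at -0.0459, 0.0125 and -0.0766. With the replicate number as a block, 8 of the 10 genes, 39 pathway genes and 3584 genes over all were called. With 3 livers per group the permutation tests of shares could not pass 0.05, and the low counts of *Tgfb2* in HKO livers limit its precision.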
